A study of Mus musculus with 21 samples.

Results

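The genes Nlrp4a, Nlrp4b, Nlrp4c, Nlrp4e, Nlrp9a, Nlrp9b, Nlrp9c and Nlrp14 belong to the reproductive branch of the mouse NLR family. They were listed by name, with no threshold on a measured value, and all 8 symbols matched a row among the 54232 genes of the count table. NLR proteins carry a nucleotide-binding NACHT domain and leucine-rich repeats, and the family is best known for immune sensors that assemble inflammasomes. A separate set of members is transcribed mainly in germ cells. Their transcripts are stored in the growing oocyte and several of their proteins act after fertilisation, before the embryonic genome takes over. Nlrp14 is a maternal-effect gene needed for early embryo development. The 3 Nlrp9 genes and the Nlrp4 genes arose by tandem and segmental duplication in rodents, and mouse Nlrp9b is also known as a sensor of viral RNA in the gut epithelium. Nlrp4e has been linked to early cleavage of the embryo.

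The libraries came from fully grown germinal vesicle oocytes of C57BL/6-background mice, with 3 oocytes pooled in each of 21 libraries of poly(A) RNA. The study varied the dose of Kif11, which encodes the spindle motor kinesin-5. Every animal carried at least a floxed (fl) Kif11 allele, so no library came from animals with wild-type alleles only. The control group was Kif11 wt/fl without Cre (WtFlox in the labels, n = 4), with a wild-type and a floxed allele. The wt/fl Spo11-Cre group (n = 5) added a Spo11-Cre transgene, whose meiosis-specific Cre acts from early prophase on the floxed allele. The fl/del group (FloxDel, n = 4) had a floxed and a constitutively deleted allele and no Cre, and in the fl/del Spo11-Cre group (n = 4) Cre acts on the remaining floxed allele, so that both are deleted by design. In the fl/fl Gdf9-Cre group (FloxFlox, n = 2), and likewise in fl/fl Zp3-Cre (n = 2), Cre under oocyte-specific promoters acts on both floxed alleles later, in oocytes within follicles. The study's methods count 17 libraries, which is the number without the fl/fl groups, and state that a mouse gave 1 or 2 libraries and that females were 3 to 4 months old and primed with eCG or HyperOva. Whether the age and priming also hold for the fl/fl groups is not given in the sources used here. Since a mouse could give 2 libraries, p-values can rest in part on the spread between libraries of the same mouse. Of the 17, each library except wt/fl Spo11-Cre replicate 5 shares its name prefix with 1 other library of its group. The labels do not say whether the prefix marks the mouse. If it does, every test fitted on the 17 treats libraries of the same mouse as independent. Each of their groups then has fewer mice than its n. For the 4 fl/fl libraries, the Cre driver, the genotype and the set of libraries cannot be told apart. Among the 17, every library name without Cre has the letter A after the prefix, and every name with Spo11-Cre has B or C. What the letter marks is not given in the labels, and Spo11-Cre cannot be told apart from it.

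Library totals lay between 7205010 counts (fl/del replicate 3) and 18454549, with 7801470 to 10759741 in the fl/fl libraries. Kif11 itself stood at 34.5 ± 8.46 CPM (a gene's count scaled to the library total, mean ± SD, n = 4) in the controls, 24.6 ± 5.04 CPM with Spo11-Cre added (n = 5), 11.9 ± 3.06 in fl/del (n = 4) and 1.78 ± 0.685 CPM in fl/del Spo11-Cre (n = 4). The Gdf9-Cre libraries had 5.11 and 4.90 CPM and the Zp3-Cre libraries 7.95 and 4.27 CPM. All 12 oocyte markers had a median of at least 10 CPM. Of 18 follicle cell markers, 15 had a median under 1 CPM, with Cyp19a1 (46.5 to 80.5 CPM) and Nr5a2 (21.1 to 44.8 CPM) at 10 CPM or more and Foxl2 at 0 in every library. The summed level of all 18 was 84.1 to 126 CPM in the controls, 73.9 to 103 in wt/fl Spo11-Cre, 101 to 116 in fl/del and 95.4 to 114 in fl/del Spo11-Cre. The Gdf9-Cre libraries had 120.1 and 84.5 CPM and the Zp3-Cre libraries 95.8 and 126 CPM. Without Cyp19a1 and Nr5a2 the sum was 25.5 CPM in Gdf9-Cre replicate 1 and 4.41 to 10.9 CPM in the other 20 libraries. The 8 immune cell markers together reached at most 9.16 CPM, with Ptprc at 0.256 CPM or less and Tyrobp at 0 in every library. In pooled oocytes, fewer cells of a type and less RNA per cell cannot be told apart.

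All 8 genes lie on mouse chromosome 7 (GRCm38, GENCODE vM21 gene models). From the centromere side they are Nlrp4c (chr7:6045161-6105150, plus strand), Nlrp4b (chr7:10687789-10730168, plus), Nlrp9b (chr7:19991465-20073306, plus), Nlrp4e (chr7:23301192-23362277, plus), Nlrp9c (chr7:26322473-26403700, minus), Nlrp4a (chr7:26435113-26476142, plus), Nlrp9a (chr7:26535023-26575615, plus) and Nlrp14 (chr7:107166990-107198102, plus). Nlrp9c, Nlrp4a and Nlrp9a stood together in 253143 bases. The longest coding model of each gene had 9 to 11 exons and a coding length of 2589 (Nlrp4b) to 3012 bases (Nlrp9a and Nlrp9c). No annotated gene overlapped Nlrp4a, Nlrp4c, Nlrp9a, Nlrp9c or Nlrp14. Within Nlrp9b lay an annotated 5S rRNA gene on the other strand and a processed pseudogene, within Nlrp4b an intronic sense transcript, and within Nlrp4e a pseudogene of Krt8.

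The coding sequences fell into the 3 groups their names give. Aligned bases were 85.1% to 88.3% identical among the 3 Nlrp9 genes, and 93.9% identical between Nlrp4c and Nlrp4e. Nlrp4a matched Nlrp4c and Nlrp4e at 86.8% and 86.5%, and Nlrp4b matched the other Nlrp4 genes at 79.7% to 80.8%. Nlrp14 matched no other member above 74.7%.

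**Figure D1:**
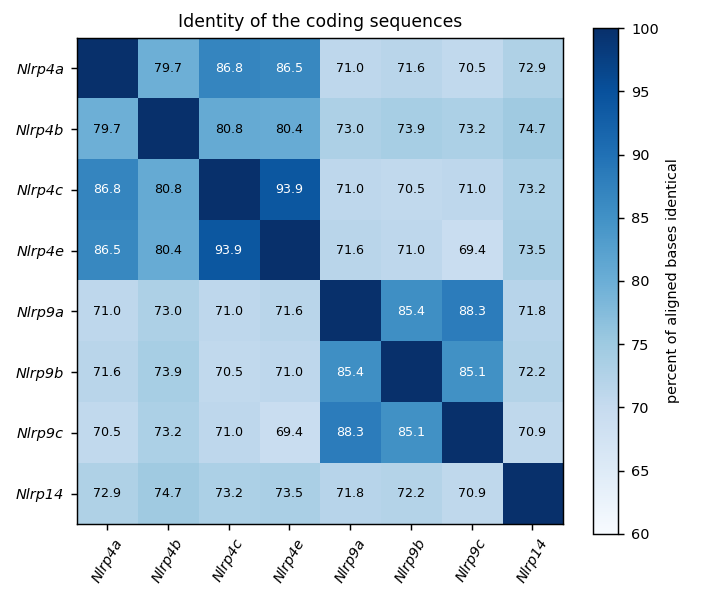
Percent of aligned bases that are identical between the longest coding sequences of each pair of genes (rows and columns are the genes, the shade runs from 60 to 100 percent). Nlrp4c and Nlrp4e are the closest pair at 93.9%, and the Nlrp14 row stays at 74.7% or below.

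The nucleotide-binding loop of the NACHT domain (the P-loop or Walker A motif) was found once in each coding sequence. The coding stretch around it is printed 5′ to 3′ for each gene from the GENCODE transcripts, with the codons of the loop in capitals, because every member keeps the loop in spite of these differences.
Nlrp4a: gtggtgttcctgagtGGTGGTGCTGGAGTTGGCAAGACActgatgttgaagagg
Nlrp4b: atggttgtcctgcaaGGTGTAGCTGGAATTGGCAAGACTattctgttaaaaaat
Nlrp4c: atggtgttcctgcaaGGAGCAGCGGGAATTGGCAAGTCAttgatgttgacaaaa
Nlrp4e: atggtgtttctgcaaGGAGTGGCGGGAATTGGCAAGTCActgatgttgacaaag
Nlrp9a: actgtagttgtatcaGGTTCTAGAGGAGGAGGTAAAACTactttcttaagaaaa
Nlrp9b: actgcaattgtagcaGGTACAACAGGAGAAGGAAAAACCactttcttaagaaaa
Nlrp9c: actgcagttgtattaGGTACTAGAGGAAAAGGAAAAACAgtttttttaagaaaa
Nlrp14: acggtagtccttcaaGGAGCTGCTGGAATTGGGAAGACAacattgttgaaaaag

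Such near copies can bear on the counts, since only uniquely mapped reads were counted. Of all 50-base words in the longest coding transcript, 36.9% were shared with another annotated gene for Nlrp4e and 11.9% for Nlrp4c. The share was 3.11% for Nlrp4a, 4.99% to 6.54% for the Nlrp9 genes, and 0 for Nlrp4b and Nlrp14. The genes that shared words with Nlrp4e included the predicted genes Gm16443, Gm8486, Gm8685 and Gm8728. With Gm4541, these near copies stood at 0 to 1.68 CPM in all 21 libraries, and Gm8486 had no count at all. The level of Nlrp4e may therefore be less certain than those of Nlrp4b and Nlrp14. The paired reads were longer than these words, and how many were left out as not unique was not analysed here.

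Around a start, which for Nlrp4a lay inside its gene model, stretches of Nlrp4a, Nlrp4b and Nlrp4c resembled each other, as did those of Nlrp9a and Nlrp9c. RefSeq promoter windows (GRCm38.p6, 250 bases before to 50 after a start) were at hand for 7 of the 8 genes. The windows below are shown because they hold runs that members share letter for letter. Capitals mark CCAAT, searched on both strands as CCAAT and ATTGG, and the E-box pattern CANNTG, which reads the same on both strands. In the Nlrp4 windows, CCAAT is directly followed by the E-box CACATG, so that both appear as a single capital run.
Nlrp4a, chr7:26435529-26435629, plus: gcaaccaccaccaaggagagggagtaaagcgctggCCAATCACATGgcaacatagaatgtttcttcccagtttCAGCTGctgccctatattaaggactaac
Nlrp4b, chr7:10687704-10687801, plus: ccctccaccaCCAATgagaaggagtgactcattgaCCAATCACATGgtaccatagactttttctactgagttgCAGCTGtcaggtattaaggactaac
Nlrp4c, chr7:6045108-6045204, plus: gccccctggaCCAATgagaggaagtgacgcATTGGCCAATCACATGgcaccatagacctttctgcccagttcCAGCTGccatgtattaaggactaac
Nlrp9a, chr7:26534905-26535072, plus: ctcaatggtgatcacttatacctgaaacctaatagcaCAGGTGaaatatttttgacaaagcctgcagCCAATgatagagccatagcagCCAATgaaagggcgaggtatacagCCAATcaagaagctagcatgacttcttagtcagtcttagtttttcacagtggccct
Nlrp9c, chr7:26403695-26403862, minus: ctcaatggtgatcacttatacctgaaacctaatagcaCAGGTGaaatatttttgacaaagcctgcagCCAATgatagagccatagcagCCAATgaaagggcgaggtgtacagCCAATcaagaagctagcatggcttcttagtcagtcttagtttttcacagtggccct

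The Nlrp9a and Nlrp9c windows were 98.8% identical over 168 bases and began with a run of 106 bases without a difference. Nlrp4a, Nlrp4b and Nlrp4c were 75.2% to 81.6% identical over 97 to 101 bases. They shared the run ccaatcacatgg, found in the windows of 6 genes in all, and the run tattaaggactaac, found in no other gene's window among 32851. CCAAT was present in 37.4% of all windows, and at least 3 copies in 3.37%, while the whole windows of Nlrp9a, Nlrp9c and Nlrp4c each held 3. CANNTG was present in 72.3% of all windows, so its presence in every member's window is close to the background. Nlrp4e and Nlrp9b did not share these stretches. Over whole windows, Nlrp4e was 57% to 60% identical to those of Nlrp4a, Nlrp4b and Nlrp4c, and Nlrp9b 58.3% and 60.7% to those of Nlrp9a and Nlrp9c, while Nlrp9a and Nlrp9c were 82.3% identical. The Nlrp4e window held 1 CCAAT and 2 CANNTG. Nlrp4a had another window (chr7:26434863-26435162), which spans the start of its GENCODE model and was not the source of the printed stretch. That window held no CCAAT. It was 55.7% identical to the window of Nlrp4c and 57.7% and 60.7% to those of Nlrp4b. The Nlrp9b window held no CCAAT and 4 CANNTG, and it began 16308 bases inside the GENCODE gene model, and which start oocytes use was not analysed here. These matches are letters in a window and no evidence of binding.

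In control oocytes, Nlrp14 dominated the group. On the length-scaled scale of the authors' TPM (abundance scaled for transcript length and library size), it stood at 4698 ± 796 TPM (SD, n = 4) in wt/fl, the 18th highest of 54232 genes. It made up 59.4% to 64.1% of the summed TPM of the 8 genes in these libraries. Nlrp9a followed at 798 ± 105 TPM, then Nlrp9c at 586 ± 33.5, Nlrp9b at 524 ± 63.1, Nlrp4a at 463 ± 24.1 and Nlrp4b at 357 ± 13.6 TPM. Nlrp4e was far lower at 90.4 ± 11.9 TPM and Nlrp4c lowest at 10.3 ± 2.06 TPM, which corresponds to 172 to 276 counts per library. The ranges of neighbours in this order did not overlap in wt/fl, except for Nlrp9c with Nlrp9b and Nlrp9b with Nlrp4a. The steps were 5.89-fold from Nlrp14 to Nlrp9a, 3.95-fold from Nlrp4b to Nlrp4e and 8.75-fold from Nlrp4e to Nlrp4c. Over all 21 libraries Nlrp14 stayed above Nlrp9a, Nlrp4b above Nlrp4e and Nlrp4e above Nlrp4c in every library. Which of Nlrp9a and Nlrp9c was higher depended on the gene length used. The authors' TPM put Nlrp9a 1.36-fold above Nlrp9c in wt/fl, while CPM per 1000 bases of the longest coding transcript gave 339 ± 41.3 for Nlrp9a and 440.2 ± 20.2 for Nlrp9c.

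**Figure D2:**
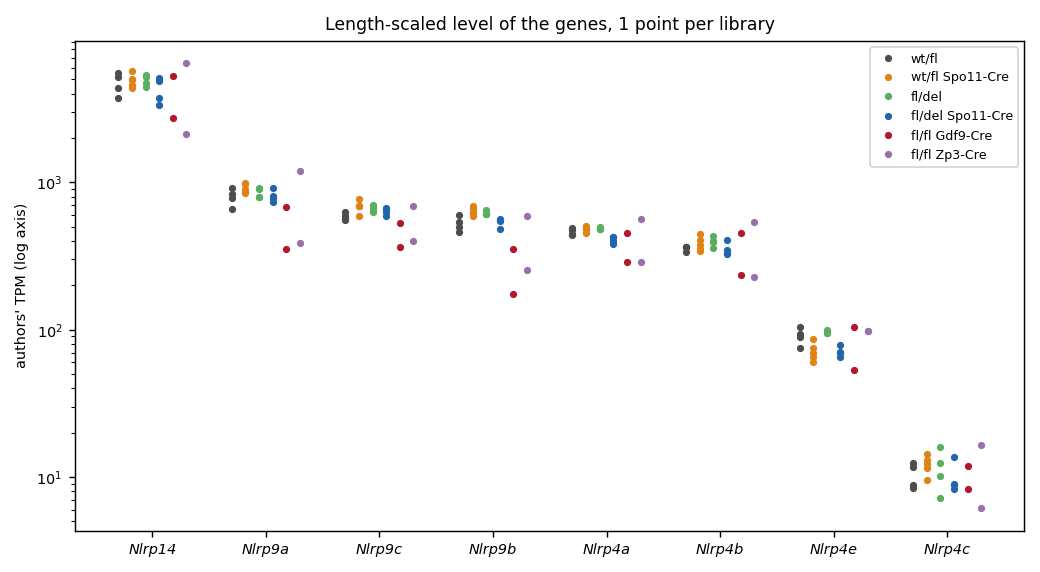
Authors' TPM (log axis) of the 8 genes, ordered by their wt/fl mean, with 1 point per library and colours for the 6 groups. Nlrp14 lies above and Nlrp4e and Nlrp4c lie below the 5 genes in the middle in every group.

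Levels of the other NLR genes were also uneven. Of 22 genes of the family listed for comparison, 6 had a median of at least 10 CPM over the 21 libraries and 16 never reached 5 CPM. The highest in wt/fl were Nlrp5, a core member of the subcortical maternal complex, at 1010 TPM and its relative Nlrp4f at 892 TPM, so both stood above Nlrp9a and below Nlrp14. Nlrp4g (382 TPM) and Nlrp2 (269 TPM) lay near Nlrp4b. The other genes of the 6 belong to inflammasomes that sense bacterial proteins, Nlrc4 at 42.5 to 67.6 CPM and Naip1 at a median of 62.0 CPM and at most 98.1 CPM. The sensors Nlrp1a, Nlrp1b and Nlrp3 were at or near 0, with at most 0.558 CPM for Nlrp3. Of 8 inflammasome partner genes, Nek7, a kinase, was at 19.4 to 32.7 CPM. The other 7 never reached 5 CPM, and the cytokine gene Il1b and the DNA sensor Aim2 had no count. The adaptor Pycard had no count in 20 of 21 libraries.

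Values per library are given as CPM, which compares a gene between libraries but not genes of different length. Differences between groups were tested with edgeR's quasi-likelihood test on all genes with a count in at least 3 libraries (22383 genes in the 17 libraries, 23225 in the 21), with Benjamini-Hochberg adjustment over all of them and a threshold of 0.05. Folds are on the log2 scale with their SE. This SE is the size of the log2 difference divided by the square root of the test's F statistic. Its spread is estimated over all groups of the fit, not over the groups compared alone. The groups share control libraries between comparisons, so the comparisons are not independent. Where a member's libraries are said not to overlap between groups, the share of all genes that do so was not computed. The same holds for libraries said to lie outside the range of others. Such separation is a description and adds nothing to the tests.

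**Figure D3:**
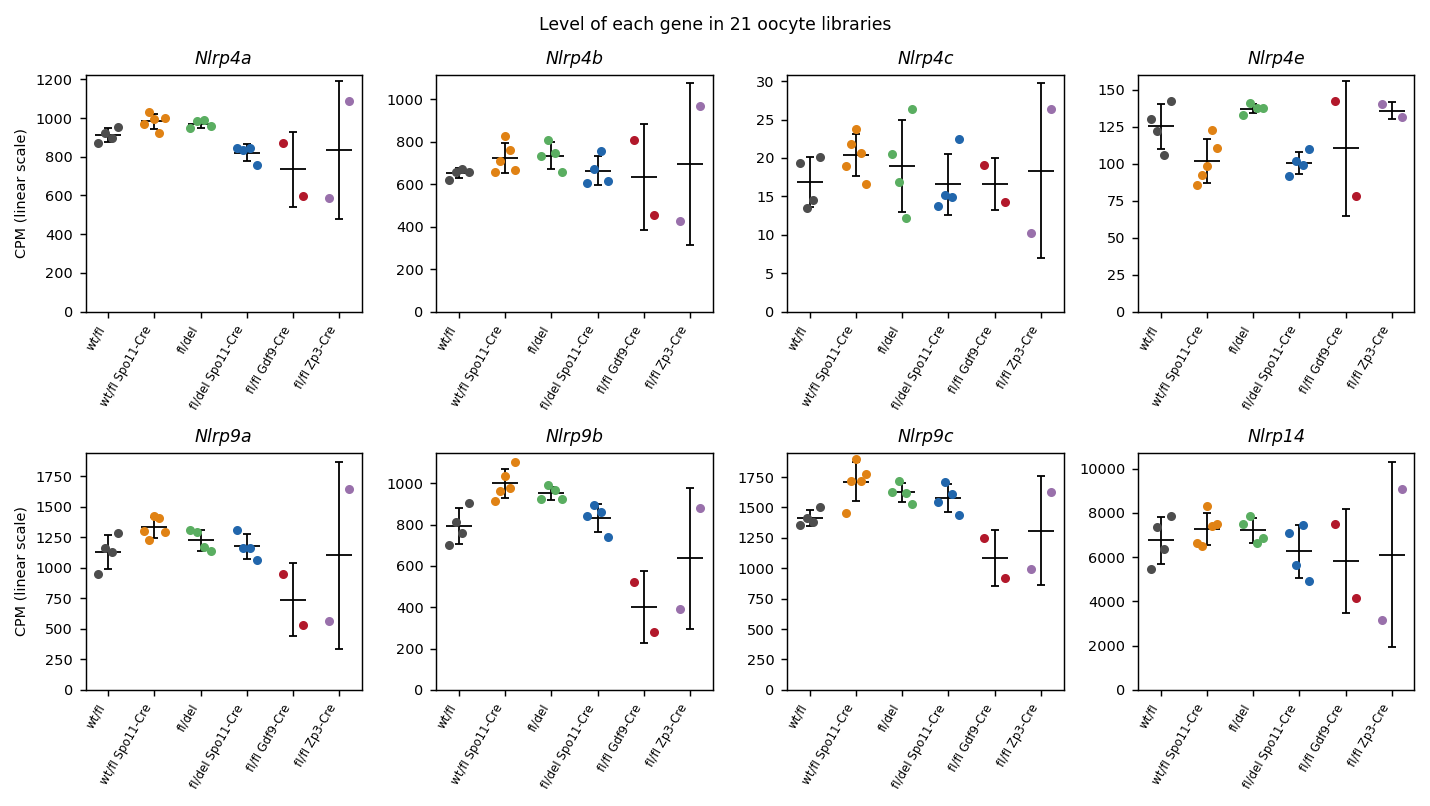
CPM (linear axis from 0) of each gene in the 21 libraries, with 1 point per library and lines for the mean ± SD of each group. The Nlrp9b points of wt/fl Spo11-Cre (915.7 to 1104) lie above those of wt/fl (699 to 904), and in both fl/fl groups the replicates lie far apart for most genes.

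Addition of Spo11-Cre to wt/fl oocytes asked what the transgene and the loss of the floxed allele do together, which this comparison cannot tell apart. The letter in the library names (A without Cre, B or C with it) also differs between these groups. Nlrp9b and Nlrp9c were higher with Cre, by 1.28-fold and 1.23-fold. Nlrp9b was at 699, 812, 761 and 904 CPM in wt/fl replicates 1 to 4 and at 915.7, 964, 1034, 979 and 1104 CPM in wt/fl Spo11-Cre replicates 1 to 5. Every library with Cre lay above every control library, and the gap between the groups was narrow (904 against 915.7 CPM). The log2 difference was 0.36 ± 0.081 (SE, adjusted p = 0.0074). Nlrp9c was at 1359, 1414, 1382 and 1507 CPM in wt/fl and at 1451, 1721, 1897, 1719.7 and 1771 CPM with Cre. Of the 5 libraries with Cre, 4 exceeded all controls and replicate 1 fell inside their range (log2 difference 0.30 ± 0.076, adjusted p = 0.021). Nlrp9a, the third of the trio, was at 950.4, 1159.9, 1129.5 and 1284 CPM against 1301, 1229, 1426, 1409 and 1290.1 CPM. Its log2 difference of 0.26 ± 0.081 did not pass (adjusted p = 0.076).

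The other 5 members did not pass either. Nlrp4e had the only negative value, -0.27 ± 0.101 (adjusted p = 0.16), and the log2 differences of Nlrp4a, Nlrp4b, Nlrp4c and Nlrp14 lay between 0.13 and 0.30. The count is thus 2 of 8 members called, both higher, where 2.19% of all genes were called and the median log2 difference of all genes at 10 CPM or more was -0.0077. Of the 12 oocyte markers, 2 were called, Zp1 and Nobox, both lower. The median over the members was 0.21. Wt/fl replicate 1 was the lowest of the 4 controls for Nlrp9a, Nlrp9b, Nlrp9c, Nlrp4a, Nlrp4b and Nlrp14. Without it no member was called (adjusted p = 0.052 for Nlrp9b and 0.067 for Nlrp9c), and without wt/fl replicate 2 or Cre replicate 3 or 5 only Nlrp9b was. With all 21 libraries in the fit no member was called either.

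The deleted allele alone, in fl/del against wt/fl, moved no member past the threshold, and 0.0223% of all genes were called (5 of 22383 by edgeR, 21 by DESeq2, and 1906 at an unadjusted p under 0.05). Of the members, 3 had an unadjusted p under 0.05. Nlrp9b was at 925, 991, 965 and 924 CPM in fl/del, all above the wt/fl libraries (log2 difference 0.28 ± 0.085, adjusted p = 0.33), and Nlrp9c at 1624, 1716, 1623 and 1529.7 CPM was too (0.21 ± 0.080, adjusted p = 0.53). All 8 log2 differences were positive, from 0.11 to 0.28. The values of Nlrp9b in fl/del and in wt/fl Spo11-Cre overlapped, with a log2 difference of -0.080 ± 0.080 between these groups.

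In fl/del Spo11-Cre oocytes, where both alleles are deleted, no member passed against wt/fl, while 0.197% of all genes were called (44 by edgeR and 158 by DESeq2, with 2334 at an unadjusted p under 0.05). Nlrp4a and Nlrp4e had the lowest unadjusted p. Nlrp4a was at 846, 834, 847 and 759.8 CPM against 872, 925, 895 and 956 CPM in wt/fl, so the groups did not overlap (log2 difference -0.15 ± 0.076, adjusted p = 0.48). Nlrp4e was at 91.2, 102, 98.9 and 109.8 CPM against 130.01, 122, 106 and 142 CPM (-0.32 ± 0.107, adjusted p = 0.25). Nlrp9b at 839, 893, 863 and 739 CPM lay within the wt/fl range.

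Against wt/fl Spo11-Cre, the comparison in which both groups carry Cre, no member passed in fl/del Spo11-Cre and 0.0357% of all genes were called (8 by edgeR and 14 by DESeq2, with 1591 at an unadjusted p under 0.05). All 8 log2 differences were negative, from -0.33 to -0.049. Nlrp4a had the lowest p among the members (log2 difference -0.29 ± 0.072, adjusted p = 0.24), and its libraries did not overlap with the 967, 1029, 996, 923.1 and 1000.2 CPM of wt/fl Spo11-Cre. DESeq2 called it (adjusted p = 0.0056). Nlrp9b did not overlap either (-0.29 ± 0.080, adjusted p = 0.33).

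Nlrp4e separated the fl/del groups by Cre, and so also by the letter in the library names. It was at 133, 140.6, 138 and 137 CPM in fl/del and at 91.2, 102, 98.9 and 109.8 CPM in fl/del Spo11-Cre, and the groups did not overlap. It was lower with Cre by 1.38-fold (log2 difference -0.47 ± 0.107, adjusted p = 0.026). It was the only member called, where 0.241% of all genes were called. The other 7 members had log2 differences from -0.26 to -0.063, and of these Nlrp4a (-0.26 ± 0.076, adjusted p = 0.20) and Nlrp9b (-0.21 ± 0.084, adjusted p = 0.53) did not overlap between the groups. Without fl/del replicate 2, 3 or 4, or fl/del Spo11-Cre replicate 1, 2 or 3, Nlrp4e was no longer called, with an adjusted p of at most 0.15 over all alternatives. Its log2 difference stayed between -0.51 and -0.43. Counts of libraries that share a name prefix, which may mark the mouse, also gave no call when summed. Nlrp4e shares more of its sequence with near copies than any other member, as given above.

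Nlrp4e was also the member with the lowest p between fl/del and wt/fl Spo11-Cre, groups that each lack 1 allele in the grown oocyte. Its 133 to 140.6 CPM in fl/del lay above the 85.3, 92.1, 98.5, 122.5 and 110.5 CPM of wt/fl Spo11-Cre (log2 difference 0.42 ± 0.101, adjusted p = 0.051). No member was called, where 0.201% of all genes were (45 by edgeR and 91 by DESeq2, with 2068 at an unadjusted p under 0.05). DESeq2 called Nlrp4e (adjusted p = 0.0029). The means of Nlrp4e were 102 and 100.5 CPM in the groups with Spo11-Cre and 125 and 137 CPM in those without it, and the interaction of Cre and allele for Nlrp4e was -0.20 ± 0.148 (adjusted p = 0.68). Groups with and without Spo11-Cre also differ in the letter of the library names.

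The interaction tested whether the difference between libraries with and without Spo11-Cre was the same in fl/del as in wt/fl. For Nlrp9b it was not. The Cre difference was 0.36 on the log2 scale in wt/fl and -0.21 in fl/del, an interaction of -0.57 ± 0.117 (adjusted p = 0.025). The means of Nlrp9b were 794 CPM in wt/fl and 834 CPM in fl/del Spo11-Cre, and 999 and 951 CPM in the groups between, wt/fl Spo11-Cre and fl/del. The interaction was negative for all 8 members, with values from -0.57 to -0.20 and a median of -0.36, and 6 of them had an unadjusted p under 0.05, as did 10.3% of all genes. By adjusted p, 1 member and 0.103% of all genes were called, and the median over all genes tested was -0.0099. Members share their libraries, so their common sign is a description. Nlrp9b was no longer called without wt/fl replicate 1, fl/del replicate 2 or 3, or fl/del Spo11-Cre replicate 4, with the library sums by name prefix, with filterByExpr, or with all 21 libraries in the fit. Its value lay between -0.64 and -0.51 in all 26 alternatives.

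**Figure D4:**
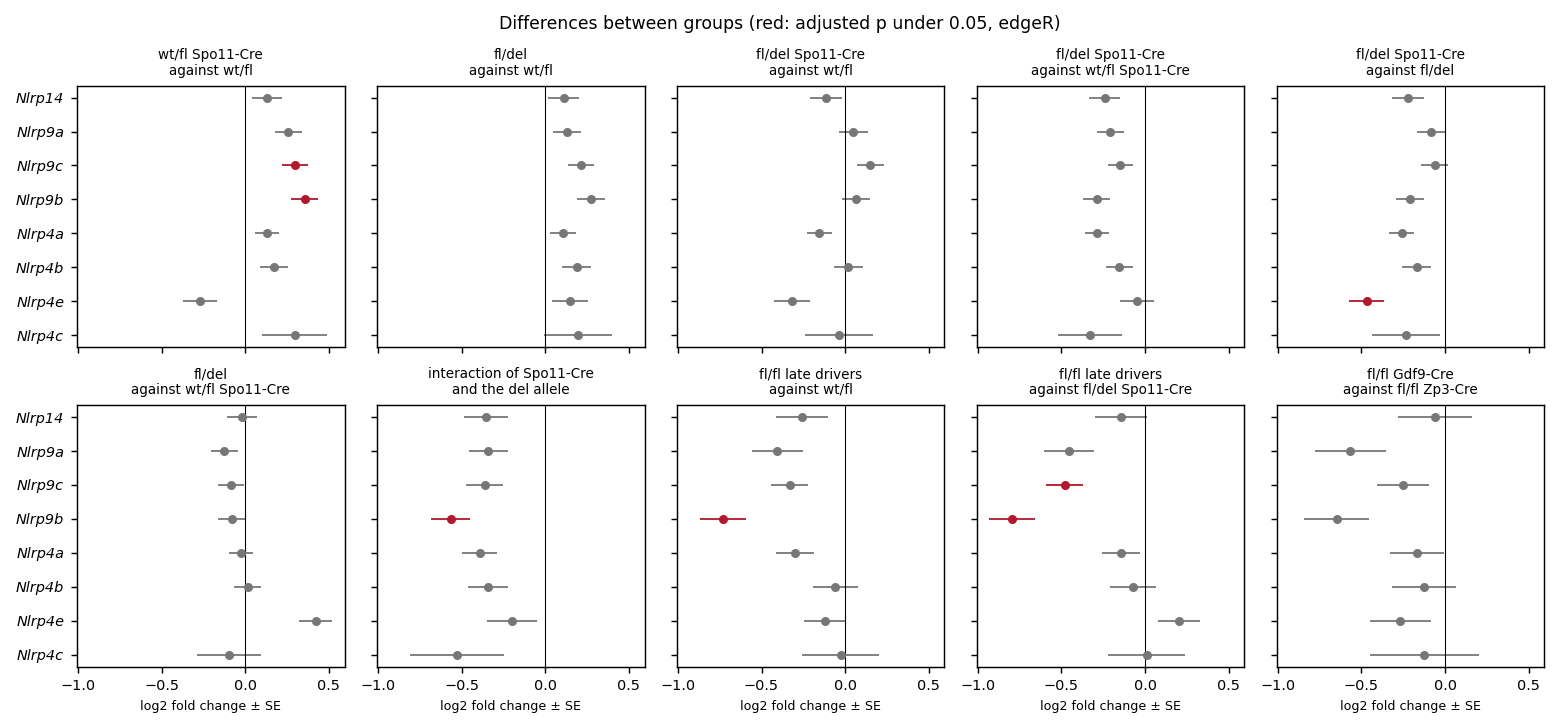
Log2 fold change ± SE of each gene in the 10 comparisons, ordered by TPM in wt/fl, with adjusted p under 0.05 in red (edgeR). Nlrp9b and Nlrp9c are red in wt/fl Spo11-Cre against wt/fl, Nlrp4e in fl/del Spo11-Cre against fl/del, and every interaction point lies left of 0.

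With the late drivers (both fl/fl groups pooled), Nlrp9b was lower. The Gdf9-Cre libraries held 524 and 279 CPM of it and the Zp3-Cre libraries 393 and 879 CPM. Of these 4 libraries, 3 lay below all 17 others (699 to 1104 CPM), while the value of 879 CPM fell inside the range of wt/fl. The log2 difference from wt/fl was -0.73 ± 0.137, or 1.66-fold lower (adjusted p = 0.00039), and Nlrp9b was the only member called, where 2.79% of all genes were. Of the 12 oocyte markers, 3 were called, all lower. Nlrp9c at 1248, 921.04, 991 and 1627 CPM and Nlrp9a at 948, 529, 561 and 1640.5 CPM were each below all 17 others in 3 of 4 libraries. Their log2 differences of -0.33 ± 0.109 (adjusted p = 0.088) and -0.40 ± 0.151 (adjusted p = 0.15) did not pass. For Nlrp9a, the gap of Gdf9-Cre replicate 1 to the lowest of the 17 was narrow (948.4 against 950.4 CPM). Mitochondrial genes took 0.268% to 0.510% of the counts in the fl/fl libraries and 0.168% to 0.281% in the other 17, with the highest share in Gdf9-Cre replicate 1, which also had the most follicle marker RNA without Cyp19a1 and Nr5a2. The part of either in the fl/fl differences was not tested.

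Against fl/del Spo11-Cre, in which both alleles are also deleted but earlier, the late drivers had lower Nlrp9b (-0.80 ± 0.137, adjusted p = 9.09e-05) and lower Nlrp9c (-0.48 ± 0.109, adjusted p = 0.0045). These were 2 of 8 members, where 2.9% of all genes were called, as were 2 of the 12 oocyte markers, both lower. Nlrp9c was no longer called without Gdf9-Cre replicate 2 (adjusted p = 0.072) or Zp3-Cre replicate 1 (0.13), with only the groups compared (0.076) or with sums by name prefix (0.053), and its adjusted p lay between 1.47e-06 and 0.40 over all alternatives. Nlrp4c and Nlrp4e had the only positive log2 differences, of which that of Nlrp4e was 0.20 ± 0.127 (adjusted p = 0.48).

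The replicates of the late drivers differed in most members. Over all genes at 10 CPM or more, the median ratio was 1.03 in Gdf9-Cre (replicate 1 over 2) and 0.940 in Zp3-Cre (replicate 2 over 1). Nlrp14 was at 7495 and 4156 CPM in the 2 Gdf9-Cre libraries and at 3159 and 9068 CPM in the 2 Zp3-Cre libraries, so that both the lowest and the highest Nlrp14 of all 21 libraries came from fl/fl Zp3-Cre. Gdf9-Cre replicate 1 exceeded replicate 2 by over 1.5-fold for 5 of 8 members, and Zp3-Cre replicate 2 exceeded replicate 1 by over 1.5-fold for 7 of 8. Both held for 4 members, Nlrp4b, Nlrp9a, Nlrp9b and Nlrp14. Among the 7755 genes at 10 CPM or more, 9.17% passed the first ratio, 9.50% the second and 2.93% both. Both ratios put the library with the higher summed level of the members on top, and genes that passed the opposite ratios were not counted. The members' summed level was 12060.0 and 7030.03 CPM in Gdf9-Cre and 6265 and 15424 CPM in Zp3-Cre, against 9652 to 14627 CPM in the other 17. Nlrp5 followed the same order (1898 and 916.04 CPM, 878 and 3030.4 CPM), as did Zp2, which encodes a zona pellucida protein (4508 and 3059 CPM, 2418 and 5193 CPM). Nlrp4e did not in Zp3-Cre, with 139.97 CPM in replicate 1 and 132 CPM in replicate 2. Zp2 and Nlrp5 are the nearest genes to Nlrp14 over all 21 libraries, these included, so their order is no separate observation.

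Gdf9-Cre replicate 2 and Zp3-Cre replicate 1 were also the libraries farthest from wt/fl over these 7755 genes. Their root mean square log2 difference from the wt/fl median was 0.451 and 0.528, against 0.21 to 0.408 in the other 19 libraries. Without both, Nlrp9b was no longer called against wt/fl (-0.28, adjusted p = 0.21) or against fl/del Spo11-Cre (-0.35, adjusted p = 0.051), nor was Nlrp9c against fl/del Spo11-Cre (-0.20, adjusted p = 0.40), and Nlrp4b was called higher instead in both comparisons. This alternative was chosen after the values were seen. In these libraries the follicle markers summed to 84.5 and 95.8 CPM and the immune markers to 2.61 and 1.41 CPM, within the ranges of the other libraries (73.9 to 126 and 0.910 to 9.16 CPM), and their part in the result was not tested.

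**Figure D5:**
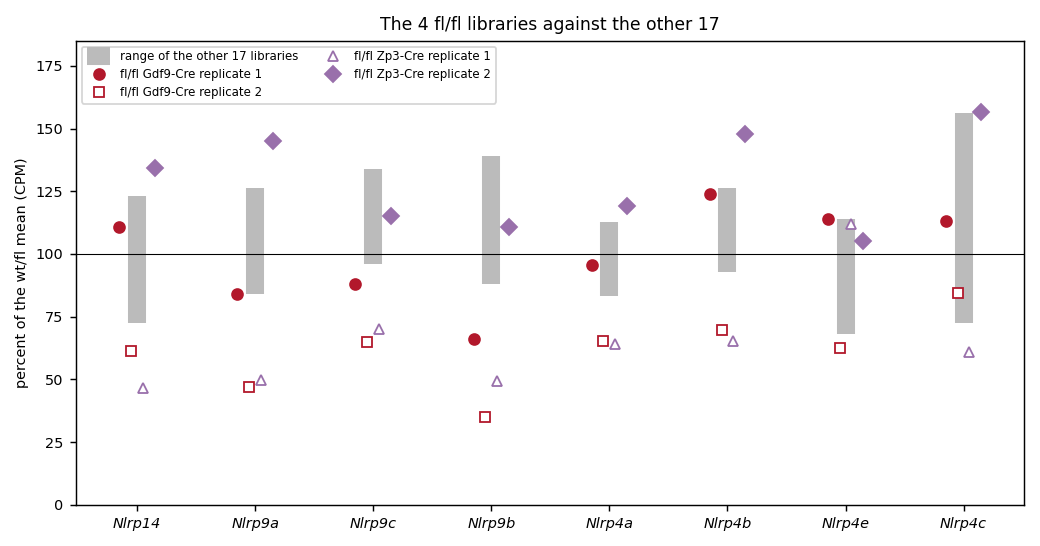
CPM of each gene in the 4 fl/fl libraries as percent of the wt/fl mean (symbols), over the range of the other 17 libraries (grey bars). Gdf9-Cre replicate 2 and Zp3-Cre replicate 1 (open symbols) fall below the grey bar for Nlrp14 and for the 3 Nlrp9 genes, Nlrp4a and Nlrp4b, and Zp3-Cre replicate 2 (diamonds) lies above it for Nlrp14, Nlrp9a, Nlrp4a, Nlrp4b and, barely, Nlrp4c.

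Between the late drivers, no member passed in fl/fl Gdf9-Cre against fl/fl Zp3-Cre, where 0.891% of all genes were called (207 by edgeR and 381 by DESeq2, with 1659 at an unadjusted p under 0.05). All 8 log2 differences were negative, from -0.65 for Nlrp9b (± 0.194, adjusted p = 0.11) to -0.061 for Nlrp14. Nlrp9a and Nlrp9b were called without a filter on low counts and with the replicate number as a block, and the direction of both turned without Zp3-Cre replicate 2.

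How much each gene varied differed as well. Within the 4 wt/fl libraries, the SD was 3.46% of the mean for Nlrp4b, 3.99% for Nlrp4a and 4.59% for Nlrp9c, and 15.8% for Nlrp14 and 19.6% for Nlrp4c. Nlrp4c had low counts (80 to 444 per library over all 21), and their part in its spread was not tested. Over the 17 libraries the highest level exceeded the lowest by 1.35-fold for Nlrp4a and 1.36-fold for Nlrp4b, by 1.7-fold for Nlrp14 and by 2.16-fold for Nlrp4c.

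The genes whose profile over the 21 libraries was most like that of a member were found by the root mean square difference of mean-centred log2 CPM, among 7755 genes. Nlrp14 was closest to Zp2 (0.136) and then Nlrp5 (0.136), and the median gene differed from it by 0.442. Nlrp9a was closest to Zfp182 (0.149) and Nlrp9c to Morc1 (0.109), and among the members Nlrp9b was closest to Nlrp9a (0.185). Nlrp4a was closest to Tacc3 (0.107), Nlrp4b to Atad1 (0.118), Nlrp4c to Snrpn (0.221) and Nlrp4e to Gnpat (0.172). Nlrp4a ranked 5th for Nlrp4b and 4th for Nlrp9c, while the closest member to Nlrp4e ranked 1849th. These likenesses are a description over 21 libraries that differ in depth and share a protocol.

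Of the other NLR genes, 15 of 22 could be tested in the 17 libraries. Naip1, of a family of sensors of bacterial proteins, was higher in wt/fl Spo11-Cre (0.56 ± 0.123, adjusted p = 0.0058) and in fl/del Spo11-Cre (0.66 ± 0.128, adjusted p = 0.0043), both against wt/fl. Its difference in fl/del, without Cre, was also positive but did not pass (0.46 ± 0.129, adjusted p = 0.26). Its mean was 44.8 CPM in wt/fl and 60.9 CPM in fl/del. Nlrp4g was lower with the late drivers against wt/fl (-0.81 ± 0.157, adjusted p = 0.00054). No other listed NLR gene passed in any of the 10 comparisons, and the 16 that never reached 5 CPM could hardly pass. Of the 9 partners of maternal NLR proteins, 3 passed in wt/fl Spo11-Cre against wt/fl. Ooep, an RNA-binding subunit of the subcortical maternal complex, was higher (0.33 ± 0.087, adjusted p = 0.029), and Tle6, another subunit, was lower (-0.32 ± 0.084, adjusted p = 0.025). Uhrf1, the hemimethylated DNA-binding protein that NLRP14 has been reported to bind, was lower too (-0.49 ± 0.104, adjusted p = 0.0045). Uhrf1 was also lower in fl/del Spo11-Cre against wt/fl (-0.49 ± 0.110, adjusted p = 0.023) and higher with the late drivers against fl/del Spo11-Cre (0.55 ± 0.119, adjusted p = 0.0027). Ooep had a negative interaction of Cre and allele (-0.56 ± 0.126, adjusted p = 0.048), as Nlrp9b did. Without Cre, in fl/del against wt/fl, the difference of Ooep was also positive but did not pass (0.31 ± 0.091, adjusted p = 0.32). None of the 5 inflammasome partners with a count in at least 3 libraries passed in any comparison. Of these, Casp1, Casp4, Gsdmd and Il18 reached at most 2.08 CPM, so the tests could hardly find a difference in them.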

How the data were processed

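RNA of 3 oocytes per library was amplified with SMART-seq v4 and sequenced as paired reads. Per the labels and methods, fastp was used by the authors for trimming, HISAT2 2.2.1 for alignment to GRCm38, and featureCounts 2.0.3 for counting unique alignments on Ensembl genes. The deposited counts are whole and not normalized. The authors' deposited TPM values were made by a method not given in the sources used here. The table counted over all exons was used. The other table, in which Kif11 was counted over exon 22, held lower counts of every member by 1.85- to 2.01-fold, with a median of 1.96-fold over genes, and was an alternative. Whether the larger counts hold each read of a pair is not given in the sources used here.

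Of 54232 genes, 54079 had a symbol. CPM were computed on library totals. Tests used edgeR 4.0.16 (TMM, glmQLFTest) in R 4.3.3 for genes with a count in at least 3 libraries. The 7 comparisons of the Spo11-Cre background were fitted on 17 libraries and those with fl/fl on 21. The scripts were tested on simulated data. Alternatives were RLE size factors, DESeq2 1.42.0, filters, the libraries in the fit, the exon 22 table, a replicate block, sums over name prefixes and leaving out each library. The members and lists were chosen by name, but with earlier results of these data known. All 8 members are named, with listed genes that pass the threshold or have the highest or lowest wt/fl level, the nearest gene to each member except Nlrp9b, for which it is not reported here, and Kif11. Other listed genes in the text (Nlrp2, Nlrp4g, Nlrc4, Nlrp3, Nek7, Pycard, markers and near copies) were named after their values were seen. No libraries of a group agreed within sampling noise. The SD covers the spread between libraries of a group, and the SE rests on the spread estimated over all groups of a fit.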

Additional observations from a re-analysis of the deposited data

Results flagged for a closer look

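Nlrp4a stood at 759.8 CPM in fl/del Spo11-Cre replicate 4, against 834 to 847 CPM in the other 3 libraries of the group, a gap that takes 0.852 of the group's range. In this library Nlrp14 (4909 CPM) and Nlrp9b (739 CPM) were also the lowest of the group, while Nlrp4e (109.8 CPM) and Nlrp4c (22.4 CPM) were the highest. It was the only such gap among 32 combinations of member and group, of which chance flags about 1 in 20.

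The Spo11-Cre difference of Nlrp9b was not the same in fl/del as in wt/fl, with an interaction of -0.57 on the log2 scale (edgeR, adjusted p = 0.025). It was negative in all 26 alternatives and called in 19 of them.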

How the results depend on the processing

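Counts of members called changed as follows, as lowest to highest where each library was left out in turn. With Cre in wt/fl, the count was 2, with 0 when all 21 libraries were fitted and 0 to 3 with a library left out. For fl/del and for fl/del Spo11-Cre, each against the wt/fl controls, it was 0 in every alternative run. For fl/del Spo11-Cre against the Cre-carrying wt/fl group it was 0, and 1 with DESeq2. For Cre in fl/del it was 1, with 2 under DESeq2 or the replicate block, 0 with all 21 libraries or sums by prefix, and 0 to 1 with a library left out. Between fl/del and the Cre-carrying wt/fl group it was 0, with 1 under RLE size factors, DESeq2, no filter, the replicate block or the exon 22 table, and 0 to 1 with a library left out. For the interaction it was 1, with 2 under DESeq2 or the block, 0 with filterByExpr, all 21 libraries or sums by prefix, and 0 to 1 with a library left out. For the late drivers against wt/fl it was 1, with 3 without a filter and 4 with the block. It rose without Zp3-Cre replicate 2 or without Gdf9-Cre replicate 1, in fits that leave 1 library of a driver. Against fl/del Spo11-Cre it was 2, with 1 for only the groups compared, sums by prefix or without both distant fl/fl libraries, and 1 to 6 with a library left out (1 without Gdf9-Cre replicate 2 or Zp3-Cre replicate 1, 6 without Zp3-Cre replicate 2). Between the late drivers it was 0, with 2 without a filter or with the block and 0 to 3 with a library left out, where the lone library of a driver is taken to vary like the other groups. Without both distant fl/fl libraries, the log2 differences of Nlrp4a and Nlrp9a from wt/fl reversed to 0.039 and 0.085, and that of Nlrp9a from fl/del Spo11-Cre to 0.032. With a library left out, the difference between the late drivers ran from -1.16 to 0.48 for Nlrp9a and from -1.17 to 0.11 for Nlrp9b, both reversed without Zp3-Cre replicate 2. The causes were not tested.

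The replicate block gave 3 calls for Cre in wt/fl. Same-numbered libraries of the 17 deviated together with r from -0.16 to 0.16, above 0.1 in 4 of 24 pairs, and libraries with other numbers with r from -0.25 to 0.27, above 0.1 in 10 of 84 pairs. Since the labels tie the numbers to nothing shared and not every same-numbered pair was above 0.1, the numbers were not taken to pair the libraries. As a hint from the data that goes the other way, 12 of 16 libraries had a higher mean r with libraries of their own number than with all other numbers pooled. Over all genes, the 491 calls for Cre in wt/fl ranged from 252 to 931 with no library left out, the 5 of fl/del from 2 to 96, the 44 and 8 of fl/del Spo11-Cre against both wt/fl groups from 29 to 230 and 4 to 39, the 54 of Cre in fl/del from 37 to 143, the 45 between fl/del and the Cre-carrying wt/fl group from 20 to 116, the 23 of the interaction from 2 to 138, the 647 and 673 of the late drivers from 233 to 1075 and 299 to 1065, and the 207 between them from 7 to 381. With a library left out, these calls ran from 179 to 575 for Cre in wt/fl and from 1 to 18 for fl/del. They ran from 30 to 71 and 3 to 12 for fl/del Spo11-Cre against both wt/fl groups. For Cre in fl/del they ran from 37 to 60, and for the interaction from 4 to 60. Between fl/del and the Cre-carrying wt/fl group they ran from 20 to 50. The calls of the late drivers over all genes moved as well.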
